A study of Mus musculus with 28 samples.

Results

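A set of 10 lipid-handling genes was followed through the livers of mice given TCPOBOP or vehicle: Cd36, Slc27a2, Slc27a5, Fabp1, Lpl, Lipc, Vldlr, Apob, Mttp and Apoa4. They were chosen by name for their roles in taking up lipid and sending it out on lipoproteins, at a point when earlier results of these data were known, and all 10 are among the 24197 RefSeq genes of the authors' deposited table. TCPOBOP is a synthetic compound that activates CAR, the constitutive androstane receptor encoded by Nr1i3. This nuclear receptor switches on drug-metabolising enzymes in hepatocytes. The mice were of the outbred CD-1 strain, labelled Crl:CD1(ICR), with no engineered allele, and polyadenylated RNA was sequenced from nuclei of frozen liver, 1 liver per library, in 28 libraries.

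The 8 groups form 4 pairs of TCPOBOP and vehicle. At 2 weeks, 4 TCPOBOP and 3 vehicle males, and 4 TCPOBOP and 3 vehicle females, were studied at an age of 9 to 10 weeks after an injection of 3 mg/kg TCPOBOP or of its vehicle under the Low Corn Oil regimen (4 µl per g body weight, 10% DMSO). At 8 weeks under the High Corn Oil regimen, with an oil volume of 20 µl per g and a DMSO share of 2% at first and 0.67% later, 3 TCPOBOP males with later weekly doses of 1 mg/kg were set against 3 vehicle males, all aged 15 to 16 weeks. At 8 weeks under the Low Corn Oil regimen, 4 TCPOBOP males with later doses of 1.5 mg/kg and an age of 15 to 16 weeks were set against 4 vehicle males treated for 4 to 8 weeks, of which 2 were 11 to 12 weeks and 2 were 15 to 16 weeks old. Among the TCPOBOP females, 1 library carries the set code G185 where all other 2-week libraries carry G184, and the low corn oil males of the 8-week pair carry G186.

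Each value below is the authors' FPKM for a whole group, that is, fragments normalised to gene body length and to library size. The depth of the libraries is unknown and no spread between mice comes with an FPKM value, so levels are described without an error. Whether a difference exceeds the spread between mice rests on the authors' edgeR p, which behaves as a p adjusted over all genes, and a gene counts as called, or as having risen or fallen, at an adjusted p under 0.05. Fold changes are the authors' own, TCPOBOP over vehicle unless stated, and differ from the plain FPKM ratio by a factor for the 2 groups. That factor shifts all genes by a median log2 of -0.11 in the 8-week low corn oil pair and of 0.15 between the TCPOBOP groups of both regimens, and by less than 0.1 in either direction in the other comparisons. Hepatocyte markers such as Alb and Ttr were present in every group, with a summed level over 10 markers of 10322 to 16989 FPKM in the TCPOBOP groups and 6586 to 18007 FPKM in the vehicle groups. At 2 weeks the sum was 13385 FPKM in TCPOBOP and 16474 FPKM in vehicle males, and 16989 FPKM in TCPOBOP and 18007 FPKM in vehicle females. Alb, the largest marker, was at 4977 FPKM in TCPOBOP and 7834 FPKM in vehicle males, and the other markers lay on both sides. In females Alb was at 7996 FPKM in TCPOBOP and 11130 FPKM in vehicle, while every other listed marker had a higher FPKM in TCPOBOP. The list's median log2 fold change was -0.17 in 2-week males, with Hpx called higher and Alb lower. In 2-week females it was 0.13, with Hpx called higher. At 8 weeks the sum was 15587 FPKM in TCPOBOP and 11266 FPKM in vehicle males under high corn oil, and 10322 FPKM in TCPOBOP and 6586 FPKM in vehicle males under low corn oil. The median log2 fold change of these markers was 0.50 under high corn oil, with Hpx, Serpina1b and Apoh called higher, and 0.34 under low corn oil, with Hpx called higher. The part of this shift in the 8-week results below was not tested. In such bulk RNA, fewer cells of a type and less RNA per cell cannot be told apart.

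Hepatocytes take up fatty acids with the help of CD36 at the plasma membrane. Inside the cell, the fatty acid transport proteins of the Slc27 family couple fatty acids or bile acids to coenzyme A, and the binding protein FABP1 carries fatty acids through the cytosol. Triglyceride in circulating lipoproteins is split by the lipases LPL and LIPC before its fatty acids can enter, and VLDLR binds whole triglyceride-rich particles. The way out is the very-low-density lipoprotein (VLDL): MTTP loads lipid onto apolipoprotein B (APOB), which forms the frame of the particle, and APOA4 associates with triglyceride-rich particles. In adult mouse liver LPL and VLDLR are normally low, whereas FABP1, APOB and LIPC are typical hepatocyte products.

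Direct repeats of the half-site AGGTCA are the classical binding sequences of nuclear receptors, spaced by 1 base for the PPARs and HNF4A and by 4 bases for CAR in many of its target genes. The promoters of 3 genes are shown: Fabp1, which holds the closest copy of the repeat spaced by 1 base, Cd36, the uptake gene with a close copy, and Apoa4, which had the highest fold change of the 10 genes. Each run below gives the 250 bases before the transcription start in the RefSeq windows of GRCm38.p6, which is not the mm9 build of the deposited table, and capitals mark matches to the repeat on the reverse strand with at most 2 mismatches. Fabp1 lies on the plus strand at chr6:71199629-71199878. Cd36 lies on the minus strand at chr5:17835897-17836146, and Apoa4 on the plus strand at chr9:46240594-46240843.
Fabp1: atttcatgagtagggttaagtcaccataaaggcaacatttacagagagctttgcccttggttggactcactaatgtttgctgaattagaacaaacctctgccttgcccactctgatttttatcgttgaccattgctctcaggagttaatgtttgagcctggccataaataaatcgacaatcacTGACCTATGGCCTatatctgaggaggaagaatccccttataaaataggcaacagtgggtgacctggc
Cd36: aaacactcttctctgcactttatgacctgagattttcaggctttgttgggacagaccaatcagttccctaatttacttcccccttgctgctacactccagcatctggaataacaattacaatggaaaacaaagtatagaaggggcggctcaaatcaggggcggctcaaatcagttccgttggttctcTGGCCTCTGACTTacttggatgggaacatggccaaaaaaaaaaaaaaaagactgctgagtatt
Apoa4: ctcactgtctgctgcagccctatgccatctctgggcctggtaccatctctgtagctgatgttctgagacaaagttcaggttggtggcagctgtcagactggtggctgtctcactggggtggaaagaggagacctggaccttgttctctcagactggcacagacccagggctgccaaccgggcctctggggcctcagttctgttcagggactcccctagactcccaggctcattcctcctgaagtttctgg

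Windows that also hold the first 50 bases of the transcript were found for 8 of the 10 genes, with 2 windows each for Lipc and Vldlr, and were searched on both strands. The repeat spaced by 1 was searched as AGGTCA, any 1 base (N) and AGGTCA again, the repeat spaced by 4 as AGGTCA, any 4 bases (NNNN) and AGGTCA again, and their matches can overlap each other. The copy in Fabp1, between 67 and 55 bases before the start, matched 11 of the 12 fixed letters, as 0.554% of all 32851 windows do. Cd36 held a copy with 10 matching letters between 63 and 51 bases before the start, and Lipc one in its second window. A match that close was held by 3.86% of all windows. With up to 3 mismatches, 4 of the 8 genes matched the repeat spaced by 1, which 24.6% of all windows do, and 3 matched the repeat spaced by 4, which 21.9% do. No match appeared in the windows of Apoa4, Mttp, Apob and Vldlr, which says only that these letters are not in these windows.

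Across the 4 comparisons of TCPOBOP with vehicle, 16 of the 40 pairs of gene and comparison were called higher in the authors' deposited table and none was called lower. Cd36 and Apoa4 rose in all 4 comparisons, Lpl and Mttp in 3, and Vldlr in 2, while Slc27a2, Slc27a5, Fabp1, Lipc and Apob passed the test in none. In 2-week males 3 of the 10 genes were called higher, where 3.42% of 17819 genes were called higher and 2.42% lower. This share and those that follow are over all genes above 0 FPKM in either group, so they include genes below the levels of the 10. A share over genes of like level was not computed. In 2-week females 3 were called higher, against a background of 4.67% of 17913 genes higher and 4.30% lower. At 8 weeks 5 were called higher under high corn oil (5.51% of 17909 genes higher, 2.54% lower) and 5 under low corn oil (4.98% of 18089 genes higher, 3.76% lower). The median log2 fold change of the 10 genes was 0.20 in 2-week males, 0.44 in 2-week females, 0.90 at 8 weeks under high and 0.68 under low corn oil, while the median over all genes tested lay between -0.03 and 0.02. By role, the genes that rose were the surface receptor Cd36, 1 of the 2 lipases, the receptor Vldlr and 2 of the 3 export genes, whereas none of the 3 genes of uptake and activation inside the cell passed the test. The 4 comparisons share no library.

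**Figure D1:**
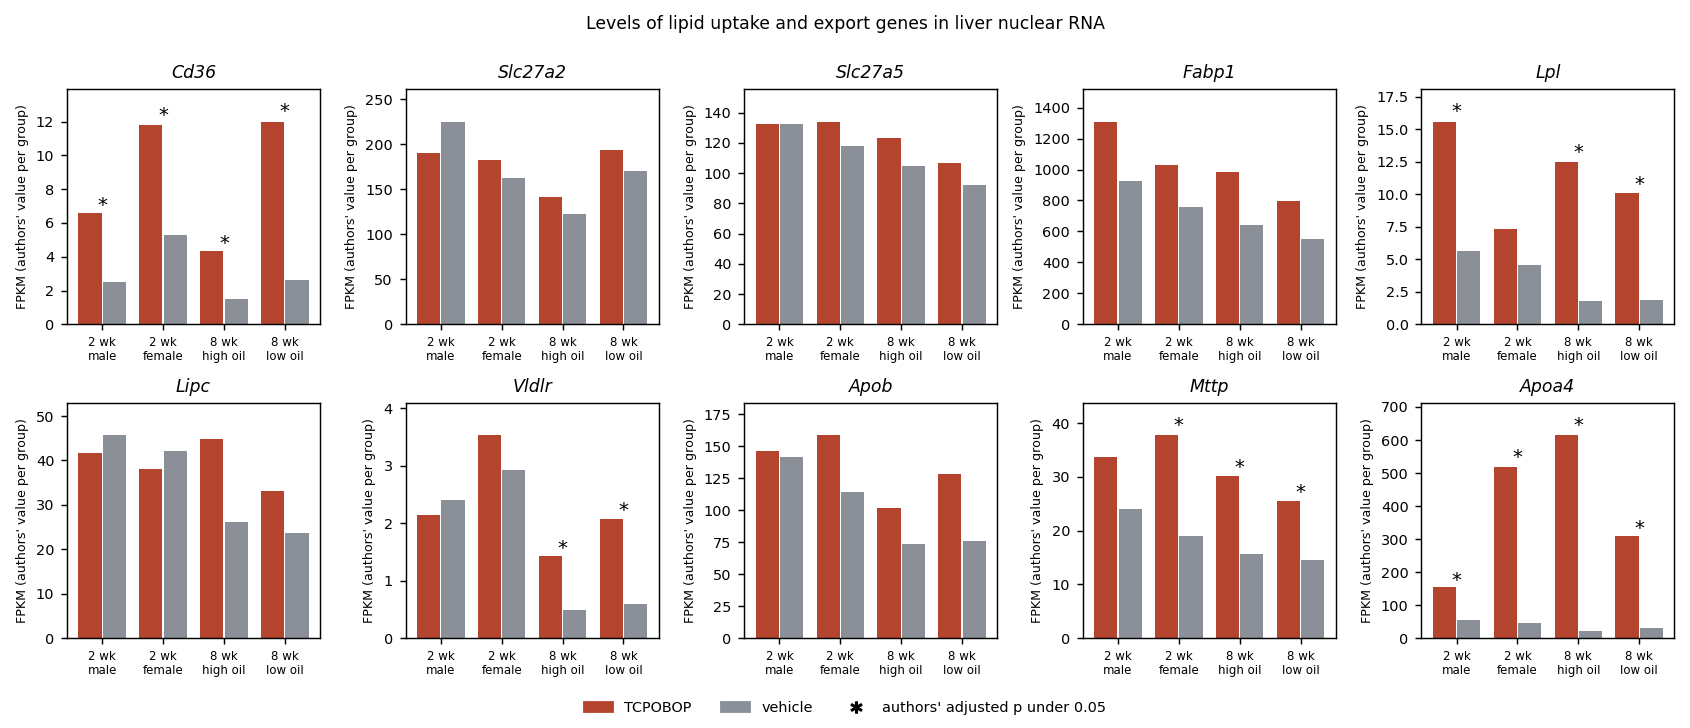
Authors' FPKM of each gene (vertical axes, linear from 0) in the 4 pairs of TCPOBOP (left bar) and vehicle (right bar) groups along the horizontal axes, where both 8-week pairs are males and the low oil vehicle was treated for 4 to 8 weeks; bars are 1 value per group without an error, and an asterisk marks an authors' adjusted p under 0.05. Apoa4 reached 153 to 614 FPKM under TCPOBOP against 22.0 to 53.7 FPKM under vehicle, whereas Slc27a5 stayed between 92.4 and 134 FPKM throughout.

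Cd36, the surface receptor for long-chain fatty acids, was higher under TCPOBOP in each pair of groups. Its level was 6.58 FPKM in TCPOBOP and 2.52 FPKM in vehicle males at 2 weeks, and 11.8 FPKM in TCPOBOP and 5.29 FPKM in vehicle females. At 8 weeks it was 4.36 FPKM in TCPOBOP and 1.51 FPKM in vehicle males under high corn oil, and 12.0 FPKM in TCPOBOP and 2.60 FPKM in vehicle males under low corn oil. The levels of the groups overlap between treatments, since vehicle females lay above the TCPOBOP males of the high corn oil regimen. In the authors' deposited table the rise was 2.47-fold in 2-week males (adjusted p = 5.23e-06, edgeR), 2.20-fold in 2-week females (adjusted p = 0.00011), 2.97-fold under high corn oil (adjusted p = 0.00014) and 4.31-fold under low corn oil (adjusted p = 3.12e-09). In vehicle livers at 2 weeks the female level was 2.10 times the male level. Its log2 ratio of females over males was 1.07, and the lower and upper ends of the central range of that ratio (the 5th and the 95th percentile) over 11329 genes of at least 0.5 FPKM were -0.36 and 0.70. A comparison of the sexes was not analysed here, so this difference is a description without a test.

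The RNAs of the intracellular transport proteins were abundant and did not pass the test anywhere. Slc27a2, a very long-chain acyl-CoA synthetase, was at 190.3 FPKM in TCPOBOP and 225 FPKM in vehicle males at 2 weeks, and 182 FPKM in TCPOBOP and 162 FPKM in vehicle females. At 8 weeks Slc27a2 was at 141 FPKM in TCPOBOP and 122 FPKM in vehicle males under high corn oil, and 193 FPKM in TCPOBOP and 169.8 FPKM in vehicle males under low corn oil. Its log2 fold changes in the authors' deposited table lay between -0.31 and 0.24 (edgeR adjusted p of 0.564 to 1). Slc27a5, the bile acyl-CoA synthetase of liver, stood at 107 to 134 FPKM in the TCPOBOP groups and 92.4 to 132 FPKM in the vehicle groups, with log2 fold changes, per the authors' deposited table, between -0.07 and 0.28 (edgeR adjusted p of 0.884 to 1). Without standard errors, a p that misses the threshold does not bound how large a change could be. The ratio of Slc27a2 to Slc27a5, both per kilobase, was 1.14 to 1.81 in TCPOBOP and 1.17 to 1.84 in vehicle groups.

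Fabp1 had the highest level of the 10 genes in every group. It stood at 1310.1 FPKM in TCPOBOP and 925 FPKM in vehicle males at 2 weeks, and at 1028 FPKM in TCPOBOP and 755 FPKM in vehicle females. At 8 weeks it stood at 983 FPKM in TCPOBOP and 645 FPKM in vehicle males under high corn oil, and at 798 FPKM in TCPOBOP and 551 FPKM in vehicle males under low corn oil. The FPKM value was above that of the paired vehicle group in 4 of 4 comparisons, but the folds of 1.35 to 1.58 in the authors' deposited table had edgeR adjusted p of 0.101 to 0.367 and were not called. Its promoter holds the closest direct repeat of the 8 searched genes, printed in capitals above.

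The 2 secreted lipases of the set differed. Lpl, lipoprotein lipase, which acts on the vessel wall of muscle and fat in adults, was at 15.6 FPKM in TCPOBOP and 5.66 FPKM in vehicle males at 2 weeks and at 7.31 FPKM in TCPOBOP and 4.58 FPKM in vehicle females. At 8 weeks it was at 12.5 FPKM in TCPOBOP and 1.82 FPKM in vehicle males under high corn oil and at 10.1 FPKM in TCPOBOP and 1.86 FPKM in vehicle males under low corn oil. All 4 TCPOBOP groups lay above all 4 vehicle groups. In the authors' deposited table Lpl rose 2.64-fold in 2-week males (adjusted p = 1.05e-05, edgeR), 7.21-fold under high corn oil (adjusted p = 1.32e-13) and 5.07-fold under low corn oil (adjusted p = 6.20e-10). In 2-week females the deposited fold of 1.57 was not called (edgeR adjusted p = 0.637), and whether the response differed between the sexes was not tested. Lipc, hepatic lipase, which hydrolyses lipid of lipoprotein remnants and HDL, was at 33.1 to 44.8 FPKM in TCPOBOP and 23.6 to 45.6 FPKM in vehicle groups. It was not called in any comparison of the authors' deposited table, the smallest edgeR adjusted p being 0.0597 under high corn oil at 1.76-fold. The ratio of Lpl to Lipc was 0.374 in TCPOBOP and 0.124 in vehicle males at 2 weeks, and 0.192 in TCPOBOP and 0.109 in vehicle females. At 8 weeks this ratio was 0.279 in TCPOBOP and 0.0700 in vehicle males under high corn oil, and 0.306 in TCPOBOP and 0.0787 in vehicle males under low corn oil.

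LPL is also made by macrophages and adipocytes, and CD36 by macrophages, endothelium and adipocytes, so markers of these cells were read beside both genes. Macrophage and Kupffer cell markers, 14 genes, summed to 152 FPKM in TCPOBOP and 102 FPKM in vehicle males at 2 weeks, and 215 FPKM in TCPOBOP and 163 FPKM in vehicle females. At 8 weeks they summed to 157 FPKM in TCPOBOP and 127 FPKM in vehicle males under high corn oil, and 177 FPKM in TCPOBOP and 137 FPKM in vehicle males under low corn oil. Of the 14, 2 were called higher in each 2-week comparison and 3 in each 8-week comparison of the authors' deposited table, and none lower. The called ones were Gpnmb, Ccr2, Lyz2, Trem2 and Itgax, and no marker of that list was at 0 in any group. Over the 8 groups Gpnmb was at 0.0123 to 0.520 FPKM, Trem2 at 0.0445 to 0.664 FPKM and Itgax at 0.161 to 0.679 FPKM. Ccr2 was at 0.406 to 1.05 FPKM and Lyz2 at 17.6 to 37.1 FPKM. Clec4f, at 30.5 to 62.3 FPKM, and Cd5l, at 24.6 to 55.5 FPKM, make up most of the sum together with Lyz2 and were not called. The part of these cells in the rises of Lpl and Cd36 was not tested. The adipocyte markers other than Pck1, which hepatocytes also use for glucose synthesis, summed to 0.00866 to 0.0267 FPKM in TCPOBOP and 0.0127 to 0.0989 FPKM in vehicle groups, and Lep was listed at 0 in every group. Endothelial markers, 12 genes, summed to 148 to 277 FPKM in TCPOBOP and 165 to 256 FPKM in vehicle groups, with 1 marker, Lyve1, called in 2-week females and none in the other 3 comparisons of the authors' deposited table. Stellate cell and fibroblast markers, 12 genes, summed to 142 to 219 FPKM in TCPOBOP and 127 to 214 FPKM in vehicle groups, and the collagens Col1a1 and Col3a1 were called higher in all 4 comparisons of the authors' deposited table. Acta2 was also called higher, and Lrat and Ecm1 lower, under low corn oil.

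**Figure D2:**
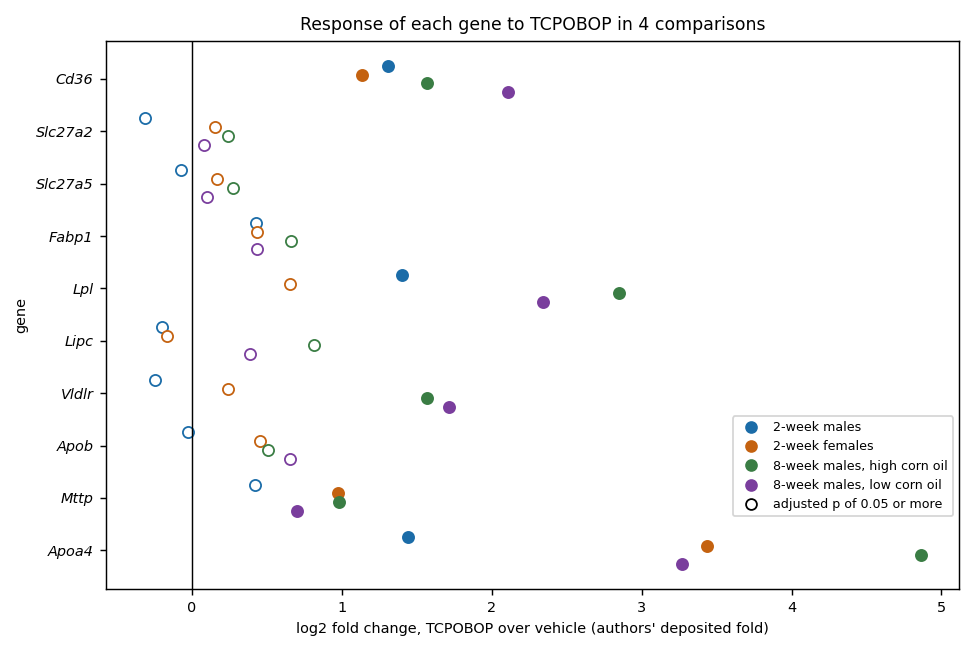
Log2 fold change of TCPOBOP over vehicle from the authors' deposited table (horizontal axis) for each gene (vertical axis) in the 4 comparisons (colours); filled points have an authors' adjusted p under 0.05, open points do not, and no error is available. Filled points lie to the right of 0 without exception, from 0.70 for Mttp under low corn oil to 4.86 for Apoa4 under high corn oil.

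Vldlr, the receptor for VLDL particles, rose at 8 weeks. Its level was 1.43 FPKM in TCPOBOP and 0.497 FPKM in vehicle males under high corn oil, and 2.08 FPKM in TCPOBOP and 0.589 FPKM in vehicle males under low corn oil. In the authors' deposited table these are rises of 2.96-fold (adjusted p = 9.17e-05, edgeR) and 3.28-fold (adjusted p = 0.000214). At 2 weeks Vldlr stood at 2.14 FPKM in TCPOBOP and 2.40 FPKM in vehicle males, and at 3.52 FPKM in TCPOBOP and 2.92 FPKM in vehicle females, with log2 fold changes, per the authors' deposited table, of -0.25 and 0.24 (edgeR adjusted p = 1 in both). The TCPOBOP groups thus lay at or below 2.14 FPKM in males at each time, while the vehicle males were at 2.40 FPKM at 2 weeks and below 0.6 FPKM in the later groups.

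That pattern in vehicle livers was shared by most of the 10 genes. In vehicle males at 8 weeks under high corn oil, 10 of 10 genes had a lower FPKM than in vehicle males at 2 weeks, and in vehicle males at 4 to 8 weeks under low corn oil 9 of 10 did, Cd36 being the exception at 1.04 times the 2-week level. The median log2 FPKM ratio of the 10 genes was -0.84 under high and -0.79 under low corn oil, beside medians of 0.04 and 0.05 over the 11261 and 11294 genes of at least 0.5 FPKM in both groups. Lpl was 1.82 FPKM under high and 1.86 FPKM under low corn oil in the later vehicle groups, against 5.66 FPKM in 2-week vehicle males. The summed hepatocyte markers were also lower in the later vehicle groups, at 11266 FPKM under high and 6586 FPKM under low corn oil. In 2-week vehicle males they summed to 16474 FPKM. Alb, the largest marker, was at 4555 FPKM under high and 2433 FPKM under low corn oil, against 7834 FPKM in 2-week vehicle males. Under low corn oil every listed marker was below its level in 2-week vehicle males, and under high corn oil all but Fgb and Hpx were. The part of this shift in the levels of the 10 genes was not tested. Treatment time and age, for high corn oil also oil volume and DMSO share, and for low corn oil also the set code of the libraries, differ together between these vehicle groups and cannot be told apart, and a test between them was not analysed here. The 8-week folds of Lpl and Vldlr are therefore folds over vehicle levels that were 3.10 and 4.82 times lower under high corn oil, and 3.05 and 4.07 times lower under low corn oil, than in 2-week vehicle males.

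Of the export genes, Mttp and Apoa4 rose and Apob did not pass. Apob, the structural protein of VLDL, stood at 146 FPKM in TCPOBOP and 141 FPKM in vehicle males at 2 weeks, and 158 FPKM in TCPOBOP and 114 FPKM in vehicle females. At 8 weeks Apob stood at 101 FPKM in TCPOBOP and 73.6 FPKM in vehicle males under high corn oil, and 128 FPKM in TCPOBOP and 76.2 FPKM in vehicle males under low corn oil. Its FPKM was above that of vehicle in all 4 pairs, whereas in 2-week males the deposited log2 fold change was -0.02, so its direction there turns with the scaling. None of its deposited changes was called, the smallest edgeR adjusted p in the authors' deposited table being 0.0778 under low corn oil at 1.57-fold. Mttp, the microsomal triglyceride transfer protein that lipidates APOB, was at 33.7 FPKM in TCPOBOP and 23.98 FPKM in vehicle males at 2 weeks, and 37.7 FPKM in TCPOBOP and 19.01 FPKM in vehicle females. At 8 weeks Mttp was at 30.1 FPKM in TCPOBOP and 15.6 FPKM in vehicle males under high corn oil, and 25.5 FPKM in TCPOBOP and 14.6 FPKM in vehicle males under low corn oil. All TCPOBOP groups lay above all vehicle groups. In the authors' deposited table it rose 1.96-fold in 2-week females (adjusted p = 0.00212, edgeR), 1.98-fold under high corn oil (adjusted p = 0.0223) and 1.63-fold under low corn oil (adjusted p = 0.0217), and its 1.34-fold difference in 2-week males was not called (adjusted p = 0.343). Each of the 3 rises stayed under 2-fold. At 8 weeks the deposited log2 fold changes of Mttp were 0.98 under high and 0.70 under low corn oil, and those of Apob 0.51 and 0.65, beside hepatocyte marker medians of 0.50 and 0.34.

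Apoa4, the apolipoprotein of triglyceride-rich particles that mouse liver makes under lipid load, had the highest fold of the 10 genes in each comparison with vehicle. It stood at 153 FPKM in TCPOBOP and 53.7 FPKM in vehicle males at 2 weeks, and at 519 FPKM in TCPOBOP and 47.4 FPKM in vehicle females. At 8 weeks it stood at 614 FPKM in TCPOBOP and 22.0 FPKM in vehicle males under high corn oil, and at 310.0 FPKM in TCPOBOP and 30.1 FPKM in vehicle males under low corn oil. The lowest TCPOBOP group was above the highest vehicle group. In the authors' deposited table Apoa4 rose 2.72-fold in 2-week males (adjusted p = 0.000506, edgeR), 10.8-fold in 2-week females (adjusted p = 7.65e-11), 29.1-fold under high corn oil (adjusted p = 1.15e-34) and 9.63-fold under low corn oil (adjusted p = 8.85e-21). Among the genes called higher it ranked 260 of 610 by fold in 2-week males, 95 of 836 in 2-week females, 74 of 987 under high corn oil and 140 of 900 under low corn oil. Vehicle females and males were close at 2 weeks, and the TCPOBOP groups were far apart. Whether the response differs between the sexes was not tested.

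**Figure D3:**
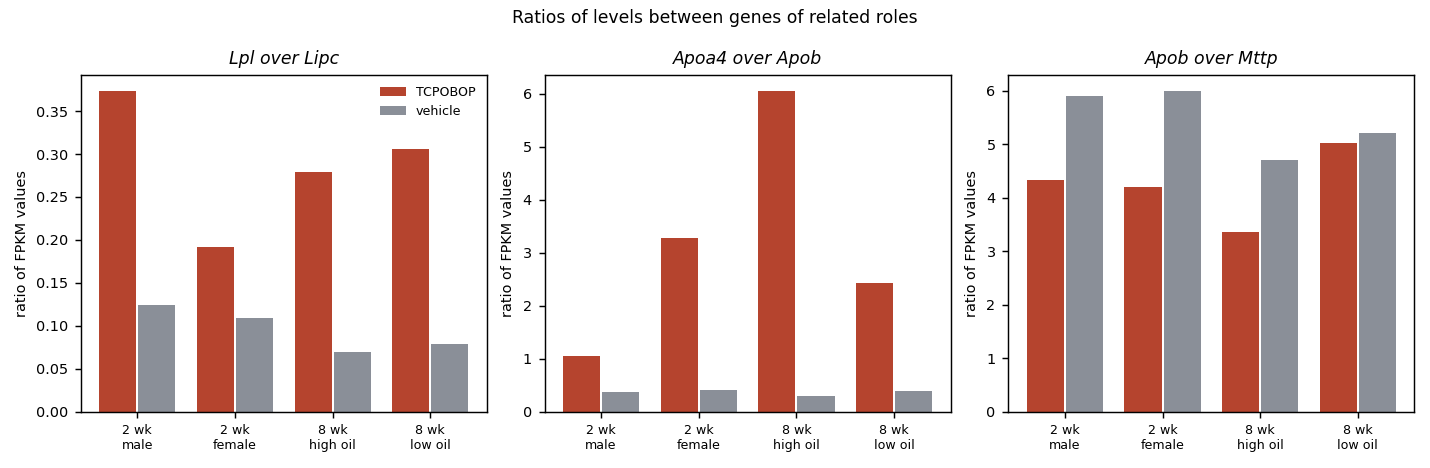
Ratio of the authors' FPKM values, per kilobase of each gene, of Lpl over Lipc, Apoa4 over Apob and Apob over Mttp (vertical axes, linear from 0) in the TCPOBOP (left bar) and vehicle (right bar) groups of the 4 pairs; 1 value per group without an error. Apoa4 over Apob was 1.05 to 6.06 under TCPOBOP against 0.299 to 0.415 under vehicle.

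The ratio of Apoa4 to Apob, both per kilobase, was 1.05 in TCPOBOP males at 2 weeks, 3.28 in TCPOBOP females, 6.06 in TCPOBOP males under high corn oil and 2.42 under low corn oil, against 0.299 to 0.415 in the vehicle groups. The ratio of Apob to Mttp was 3.37 to 5.03 in TCPOBOP and 4.71 to 6.01 in vehicle groups, and it was lower under TCPOBOP within each of the 4 pairs. These ratios describe unequal change between genes and do not say that either gene of a pair was constant.

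The authors also compared TCPOBOP males of the high with those of the low corn oil regimen at 8 weeks, groups that each serve in a comparison above. Of the 10 genes, 1 was called higher and 1 lower, in a comparison with 4.78% of 18186 genes higher and 5.07% lower. Cd36 was lower under high corn oil, at 4.36 FPKM in the high and 12.0 FPKM in the low corn oil TCPOBOP males, a log2 fold change of -1.32 in the authors' deposited table (adjusted p = 0.000182, edgeR). Apoa4 was higher, at 614 FPKM in the high and 310.0 FPKM in the low corn oil TCPOBOP males, 2.19-fold in the authors' deposited table (adjusted p = 0.0147, edgeR). The vehicle groups lay the other way for Apoa4, with 22.0 FPKM under high and 30.1 FPKM under low corn oil, and the same way for Cd36, with 1.51 FPKM under high and 2.60 FPKM under low corn oil. Lipc was at 1.49-fold in the authors' deposited table (edgeR adjusted p = 0.0623), and the other genes had adjusted p of 0.295 to 0.964. In the same comparison 7 of 12 endothelial markers were called lower and 5 of 10 hepatocyte markers higher in the authors' deposited table, the endothelial sum being 148 FPKM under high and 250.4 FPKM under low corn oil. No endothelial marker was called higher, no hepatocyte marker lower, and none of either list was at 0. The hepatocyte sum was 15587 FPKM under high and 10322 FPKM under low corn oil. The median log2 fold change was -0.785 for the endothelial and 0.80 for the hepatocyte markers. Of 12 stellate cell and fibroblast markers 3 were called lower and none higher, with a median log2 fold change of -0.43. They summed to 142 FPKM under high and 165 FPKM under low corn oil. Of 14 macrophage and Kupffer cell markers none was called, with a median log2 fold change of -0.08. They summed to 157 FPKM under high and 177 FPKM under low corn oil. The part of these cell types in the results for Cd36 and Apoa4 was not tested. Oil volume, DMSO share, later doses and library set code differ together between these groups and cannot be told apart.

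Wider lists of genes with the same roles, none of them one of the 10, were read with the same calls. The shares of all genes tested called higher and lower apply to each list below. They were 3.42% and 2.42% in 2-week males and 4.67% and 4.30% in 2-week females. At 8 weeks they were 5.51% and 2.54% under high and 4.98% and 3.76% under low corn oil, and 4.78% and 5.07% between the TCPOBOP groups. A list with 1 called gene in a direction is near these shares. Among 20 genes of fatty acid transport and activation, 1 rose in 2-week males, 4 fell in 2-week females, 2 rose and 2 fell at 8 weeks under high corn oil and 2 rose under low corn oil, with medians of log2 fold change between -0.24 and 0.12. Fabp4, the fatty acid binding protein of fat and macrophages, rose to 8.10 FPKM in TCPOBOP against 3.55 FPKM in vehicle males at 2 weeks. Its log2 fold change was 1.12 (edgeR adjusted p = 0.00117) in the authors' deposited table. Fabp4 also rose under low corn oil, 1.89-fold (edgeR adjusted p = 0.0329) in the authors' deposited table. Fabp5, an epidermal-type binding protein, fell to 6.56 FPKM in TCPOBOP against 20.8 FPKM in vehicle females (log2 fold change -1.68, edgeR adjusted p = 0.000383), and to 5.36 FPKM in TCPOBOP against 20.7 FPKM in vehicle males under high corn oil, in the authors' deposited table. Slc27a3, a relative of Slc27a2, fell in 2-week females and under high corn oil, with log2 fold changes, per the authors' deposited table, of -1.26 and -1.35. Dbi, the acyl-CoA binding protein, rose to 100.5 FPKM in TCPOBOP against 59.6 FPKM in vehicle males under high corn oil, with an edgeR adjusted p of 0.0168 in the authors' deposited table. Cav1, caveolin-1 of the plasma membrane, rose 2.83-fold under low corn oil in the authors' deposited table. Mfsd2a, a transporter of lysophospholipids, fell by a log2 of 1.46 in 2-week females in the authors' deposited table.

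Of the genes of extracellular lipolysis and its regulators, 1 of 15 measured rose and 1 fell in 2-week males, 1 of 16 rose in 2-week females, 5 rose and 2 fell under high corn oil, and 3 rose and 1 fell under low corn oil. The list median was -0.17 in 2-week males, -0.01 in 2-week females, 0.53 under high and -0.04 under low corn oil. Between the TCPOBOP groups 5 of 16 were higher and 1 lower under high corn oil, with a median of 0.29. Gm6484, named Angptl8 in later annotation and encoding a secreted inhibitor of LPL, fell to 43.2 FPKM in TCPOBOP against 83.1 FPKM in vehicle males at 2 weeks (edgeR adjusted p = 0.0141) in the authors' deposited table. At 8 weeks Gm6484 fell to 55.5 FPKM in TCPOBOP against 139 FPKM in vehicle males under high corn oil and to 52.6 FPKM in TCPOBOP against 195 FPKM in vehicle males under low corn oil (edgeR adjusted p = 0.0101 and 1.77e-05) in the authors' deposited table. In the comparisons in which Lpl was called higher, Gm6484 was called lower. Apoc3, an inhibitor of lipolysis carried on VLDL, rose to 1162 FPKM in TCPOBOP against 566.5 FPKM in vehicle males under high corn oil. Its edgeR adjusted p was 0.000696 in the authors' deposited table. Lipa, the lysosomal acid lipase, rose 1.88-fold under high and 1.65-fold under low corn oil in the authors' deposited table. Pnliprp1, a relative of pancreatic lipase with little known lipase activity, was called higher in all 4 comparisons, with log2 fold changes, per the authors' deposited table, of 6.51 to 9.51.

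Lipoprotein receptors and their regulators, 16 genes, had 1 higher and 3 lower in 2-week males, 2 lower in 2-week females, none called under high corn oil and 1 lower under low corn oil. Lrp1, a hepatic receptor for lipoprotein remnants, fell to 23.5 FPKM in TCPOBOP against 36.1 FPKM in vehicle males at 2 weeks, to 21.2 FPKM in TCPOBOP against 40.8 FPKM in vehicle females, and to 29.0 FPKM in TCPOBOP against 45.5 FPKM in vehicle males under low corn oil (edgeR adjusted p = 0.0456, 0.000412 and 0.00628) in the authors' deposited table. Scarb1, the HDL receptor, fell to 16.1 FPKM in TCPOBOP against 31.1 FPKM in vehicle males at 2 weeks (edgeR adjusted p = 9.14e-05) in the authors' deposited table. Sort1, a sorting receptor that binds APOB in the secretory pathway, fell by a log2 of 1.13 in 2-week females in the authors' deposited table. Msr1, a scavenger receptor of macrophages, was the member that rose in 2-week males, by a log2 of 0.71 in the authors' deposited table.

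**Figure D4:**
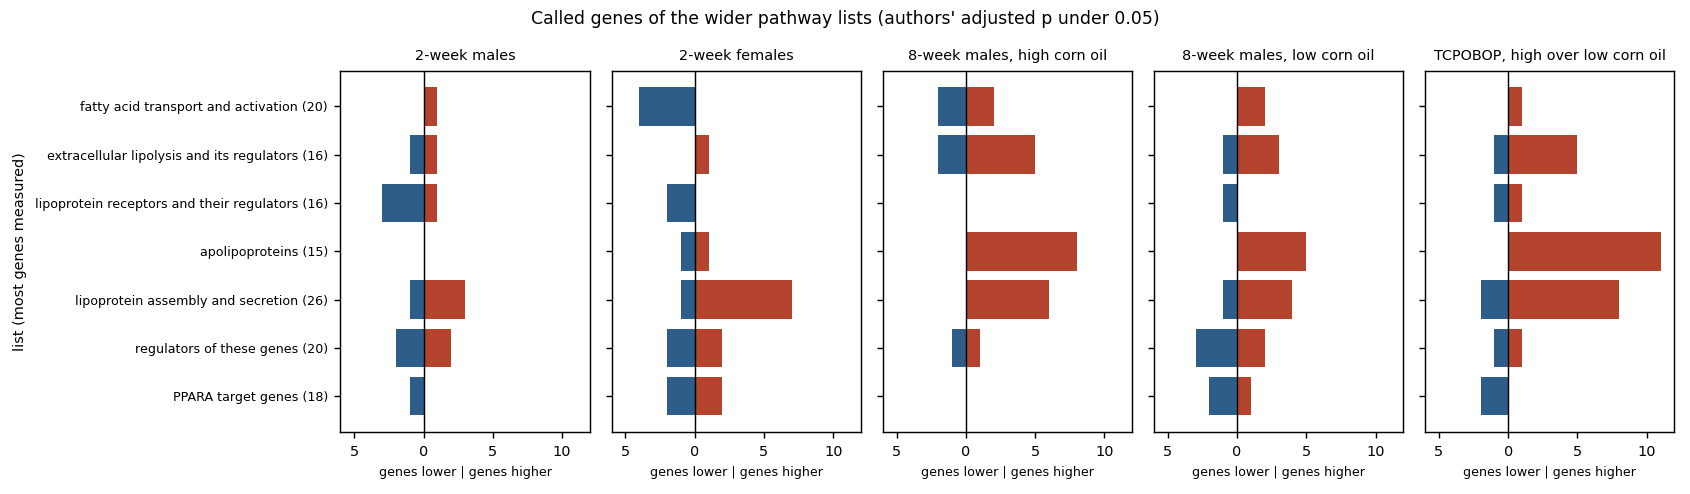
Number of genes of each wider list (vertical axis, with the most genes measured in any comparison in parentheses) called higher (right of 0) or lower (left of 0) at an authors' adjusted p under 0.05 in the 5 deposited comparisons (panels). Apolipoproteins have 8 genes higher at 8 weeks under high and 5 under low corn oil, against 0 and 1 in 2-week males and females.

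Apolipoproteins had no called gene among 14 measured in 2-week males and 1 higher and 1 lower of 15 in 2-week females. At 8 weeks 8 of 14 rose under high corn oil and 5 of 14 under low corn oil, none falling, with medians of 0.81 and 0.40, beside hepatocyte marker medians of 0.50 and 0.34. In the authors' deposited table Clu, apolipoprotein J, rose to 523 FPKM in TCPOBOP against 142 FPKM in vehicle females (edgeR adjusted p = 9.87e-06). At 8 weeks Clu rose to 484 FPKM in TCPOBOP against 181 FPKM in vehicle males under high corn oil (edgeR adjusted p = 5.96e-07). Under low corn oil Clu rose to 292 FPKM in TCPOBOP against 125 FPKM in vehicle males (edgeR adjusted p = 1.81e-05). Apoa2, a main protein of HDL, rose to 2594 FPKM in TCPOBOP against 1051 FPKM in vehicle males under low corn oil (edgeR adjusted p = 0.00063) in the authors' deposited table. Between the TCPOBOP groups, 11 of 14 were higher under high than under low corn oil and none lower. Among them were Apom, Apoc3 and Apon at 2.77-fold, 2.41-fold and 2.03-fold in the authors' deposited table. The median log2 fold change of the list was 0.96 there, beside 0.80 for the hepatocyte and -0.785 for the endothelial markers. Apoc1, Apoc2, Apoc3 and Apoa5 stand in this list and in the lipolysis list, and Apoh also among the hepatocyte markers.

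Genes of lipoprotein assembly and secretion, 26 measured, had 3 higher and 1 lower in 2-week males, 7 higher and 1 lower in 2-week females, 6 higher under high corn oil, and 4 higher and 1 lower under low corn oil. Their median log2 fold change was 0.10 in 2-week males, 0.37 in females, 0.37 under high and 0.26 under low corn oil. Between the TCPOBOP groups 8 were higher and 2 lower under high corn oil. The list median there was 0.49, beside 0.80 for the hepatocyte markers. Sar1b, the small GTPase that buds lipoprotein-carrying COPII vesicles from the endoplasmic reticulum, rose in all 4 comparisons. It reached 104 FPKM in TCPOBOP against 48.9 FPKM in vehicle males at 2 weeks, and 137 FPKM in TCPOBOP against 43.4 FPKM in vehicle females. At 8 weeks Sar1b reached 114 FPKM in TCPOBOP against 29.7 FPKM in vehicle males under high corn oil and 74.2 FPKM in TCPOBOP against 25.5 FPKM in vehicle males under low corn oil, with edgeR adjusted p of 7.09e-10 to 0.000111 in the authors' deposited table. Ces1d, a carboxylesterase that mobilises triglyceride for VLDL, rose in all 4 comparisons as well, by a log2 of 0.71 to 2.03 in the authors' deposited table. Ces3a, a related esterase, fell in 2-week males, 2-week females and under low corn oil, with log2 fold changes, per the authors' deposited table, of -0.64, -1.54 and -0.79. Surf4, a cargo receptor for lipoproteins, rose to 60.7 FPKM in TCPOBOP against 33.9 FPKM in vehicle males under high corn oil (edgeR adjusted p = 0.00458) in the authors' deposited table. P4hb, the protein disulfide isomerase that is the partner subunit of MTTP, was called higher in 2-week females and in both 8-week comparisons, as Mttp was, and also between the TCPOBOP groups, where Mttp was not called. P4hb was chosen after its calls were seen.

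Among 20 regulators of lipid genes, Pparg, a nuclear receptor that drives fat storage genes and is low in healthy hepatocytes, rose in all 4 comparisons. It stood at 2.16 FPKM in TCPOBOP and 0.809 FPKM in vehicle males at 2 weeks, and 1.72 FPKM in TCPOBOP and 0.758 FPKM in vehicle females. At 8 weeks Pparg stood at 1.51 FPKM in TCPOBOP and 0.474 FPKM in vehicle males under high corn oil, and 2.16 FPKM in TCPOBOP and 0.471 FPKM in vehicle males under low corn oil. The rises were 2.53-fold, 2.25-fold, 3.22-fold and 4.29-fold in that order in the authors' deposited table (edgeR adjusted p = 0.00098, 0.0215, 0.00318 and 8.71e-06). Pparg, like Cd36 and Lpl, is also active in macrophages and adipocytes, whose markers are given above. Ahr, the aryl hydrocarbon receptor, rose in 2-week males, 2-week females and under low corn oil, by a log2 of 0.90, 0.68 and 1.07 in the authors' deposited table. The CAR gene Nr1i3 itself fell in all 4 comparisons. The list held 2 higher and 2 lower genes in 2-week males, and 2 and 2 in 2-week females. At 8 weeks it held 1 and 1 under high and 2 and 3 under low corn oil. Of the 2 lower genes in 2-week males, 1 was Ppara, which encodes the fatty acid sensor PPARA. Ppara was called in no other comparison, and it was picked after its calls were seen.

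For each of the 10 genes, the genes with the most similar pattern over the 8 groups were sought by Pearson correlation of log2(FPKM + 0.1), among genes of at least 1 FPKM in some group. With 8 points that share groups and scaling, these values are descriptions. Apoa4 was closest to Arg2, the mitochondrial arginase (r = 0.993), which was at 1.56, 4.29, 5.21 and 2.56 FPKM in the TCPOBOP groups of 2-week males, 2-week females, high and low corn oil, and at 0.335, 0.516, 0.161 and 0.205 FPKM in their vehicle groups. Cd36 was closest to Myh14, a non-muscle myosin (r = 0.995), and next to the fibroblast collagen Col1a2 (r = 0.991). Col1a2 stood at 3.06, 4.62, 2.12 and 4.10 FPKM in the TCPOBOP groups of 2-week males, 2-week females, high and low corn oil, and at 1.68, 2.54, 1.11 and 1.83 FPKM in their vehicle groups. Like Cd36, Col1a2 was called higher in all 4 treatment comparisons and lower under high than low corn oil in the authors' deposited table. Myh14, closer to Cd36, and Adprm, the third closest (r = 0.976), were called in none of the 5 deposited comparisons. Their edgeR adjusted p in the authors' deposited table were 0.211 to 0.548 for Myh14 and 0.240 to 0.885 for Adprm. Mttp was closest to Pgrmc1, a haem-binding membrane protein (r = 0.993), Lpl to Rnf11, a ubiquitin ligase adaptor (r = 0.982), and Vldlr to Mfsd7c (r = 0.978). The closest genes to Apob, Fabp1, Slc27a5, Lipc and Slc27a2 were Vps26a, Mrpl22, Ndnl2, Bri3bp and Gsk3b, with r between 0.954 and 0.982.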

How the data were processed

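Per the submitters' processing notes, reads were aligned to mouse build mm9 with TopHat2 2.0.13 and counted with featureCounts 1.4.6-p5, and edgeR, with no version given, made the comparisons. Counting covered the gene body of RefSeq genes, per the file headers. The authors deposited 1 FPKM value per group and gene; the sources do not say how mice were combined. In the comparison of both TCPOBOP groups, 2 FPKM columns were not used and these groups' values come from their other columns. Fold changes in the deposited table are a signed score, numerator over denominator or the negative inverse. The deposited p-value column is read as Benjamini-Hochberg adjusted from its pile-up at 1.

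Signed folds were converted to log2 and levels, calls and list counts were tabulated (Python 3.11.15, pandas 2.3.3, numpy 2.4.6), after checks of each step on simulated data. A gene was tested if above 0 FPKM in either group. Named genes were the 10 members, the 3 called genes with the smallest adjusted p per list and comparison at 1 FPKM or more, and the 3 nearest patterns per member. P4hb and Ppara were named after their calls were seen. Members and lists were chosen with earlier results of these data known. Replicates are separate mice per the labels. Fits on library values could not be made, as the table holds group values only. Promoter sequences are RefSeq's for GRCm38.p6.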

Additional observations from a re-analysis of the deposited data

How the results depend on the processing

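Scaling and pseudocounts changed no call of the 10 genes, since the deposited p was kept, and the direction of 49 of 50 log2 fold changes was the same as FPKM ratios with a pseudocount of 0.1 or of 1. The exception was Apob in 2-week males, at -0.02 as deposited. It was at 0.0448 with a pseudocount of 0.1 and at 0.0445 with a pseudocount of 1. The size of the Vldlr rises at 8 weeks depended on the pseudocount. With a pseudocount of 1 their log2 values were 0.70 under high and 0.95 under low corn oil, against 1.57 and 1.71 as deposited. At an adjusted p under 0.01, of the 2 calls between the TCPOBOP groups of both regimens 1 was kept, that of Cd36. The calls of Mttp at 8 weeks were also lost there, and all 3 calls of Mttp were lost when at least 2-fold was asked for. At an adjusted p under 0.01 the called genes of all 7 wider lists numbered 8 in 2-week males (16 at 0.05), 15 in 2-week females (25), 14 at 8 weeks under high (24) and 14 under low corn oil (24), and 13 between the TCPOBOP groups (31). With at least 2-fold they numbered 9 in 2-week males, 14 under high and 12 under low corn oil, and 9 between the TCPOBOP groups. These settings are stricter than the main one by construction.

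No paired analysis was possible because the table holds 1 value per group, so replicate numbers of the labels have no values, and for the same reason no mouse could be left out in turn. Promoter matches counted 3 genes with at most 2 mismatches and 4 with at most 3. Depth is unknown, which limits what can be said of genes under 1 FPKM, such as Vldlr in the later vehicle groups.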

Other observations

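Target genes of PPARA, the fatty acid sensor of hepatocytes, were read as a further list. The receptor gene Ppara itself was called lower in 2-week males, as given above. Of 18 measured, none rose and 1 fell in 2-week males, 2 rose and 2 fell in 2-week females, none was called at 8 weeks under high corn oil, and 1 rose and 2 fell under low corn oil, by the edgeR adjusted p of the authors' deposited table. The background over all genes tested, given as the share called higher and then the share called lower, was 3.42% and 2.42% in 2-week males, 4.67% and 4.30% in 2-week females, 5.51% and 2.54% under high corn oil, and 4.98% and 3.76% under low corn oil. The list medians were 0.08, 0.13, 0.13 and -0.04 on the log2 scale in that order. Vnn1, a pantetheinase, rose to 6.44 FPKM in TCPOBOP against 1.19 FPKM in vehicle females and to 2.61 FPKM in TCPOBOP against 0.585 FPKM in vehicle males under low corn oil, with log2 fold changes, per the authors' deposited table, of 2.42 and 2.07. Pdk4, a kinase that restrains glucose oxidation, fell to 1.17 FPKM in TCPOBOP against 2.88 FPKM in vehicle females and to 1.59 FPKM in TCPOBOP against 2.80 FPKM in vehicle males under low corn oil, with log2 fold changes, per the authors' deposited table, of -1.31 and -0.94. Fgf21, a hormone of fasting and stress, fell in 2-week males, 2-week females and under low corn oil, with log2 fold changes, per the authors' deposited table, of -3.42, -2.66 and -1.50. Between the TCPOBOP groups at 8 weeks 2 of the 18 genes were lower under high corn oil, Cyp4a14 and Acaa1b, and none was higher. The list median there was -0.40, and 4.78% of all genes tested were higher and 5.07% lower. Cyp4a14, a fatty acid hydroxylase, was at 0.727 FPKM under high and 6.22 FPKM under low corn oil. Its log2 fold change was -2.94 (edgeR adjusted p = 0.00181) in the authors' deposited table. Of 8 cholangiocyte markers, 1 was called in the treatment comparisons, Spp1, higher under low corn oil in the authors' deposited table. Under low corn oil Spp1 was at 21.8 FPKM in TCPOBOP and 6.78 FPKM in vehicle males. Its levels were similar under high corn oil, at 22.1 FPKM in TCPOBOP and 6.99 FPKM in vehicle males, without a call. Spp1, osteopontin, made up most of the sum of that list, which was 13.9 to 24.9 FPKM in TCPOBOP and 9.14 to 15.0 FPKM in vehicle groups. The other 7, a split made after the values were seen, summed to 1.50 FPKM in TCPOBOP and 3.03 FPKM in vehicle males at 2 weeks, 1.77 FPKM in TCPOBOP and 2.59 FPKM in vehicle females, and 2.75 FPKM in TCPOBOP and 3.09 FPKM in vehicle males under high corn oil. Under low corn oil they summed to 2.45 FPKM in TCPOBOP and 2.35 FPKM in vehicle males. S100a8, a calcium-binding protein of neutrophils, was called higher in all 4 treatment comparisons of the authors' deposited table. The other 11 lymphocyte and neutrophil markers, a split made in the same way, summed to 12.3 to 17.7 FPKM in TCPOBOP and 8.55 to 14.9 FPKM in vehicle groups. S100a9, the partner of S100a8, was not called in any treatment comparison. It was at 1.13 FPKM in TCPOBOP and 0.579 FPKM in vehicle males at 2 weeks, and 1.35 FPKM in TCPOBOP and 0.8097 FPKM in vehicle females. At 8 weeks S100a9 was at 2.58 FPKM in TCPOBOP and 2.88 FPKM in vehicle males under high corn oil, and 1.24 FPKM in TCPOBOP and 1.45 FPKM in vehicle males under low corn oil. Mpo and Ltf, neutrophil granule genes below 0.5 FPKM in every group, were called higher in both 8-week comparisons, and Ltf also in 2-week females, in the authors' deposited table.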
